A study of Mus musculus with 24 samples.

Results

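Transcripts of the matrix metalloproteinases (MMPs), the ADAMTS proteases and the tissue inhibitors of metalloproteinases (TIMPs) were followed in mouse embryonic fibroblasts (MEFs). Members were the protein-coding genes whose symbol was Mmp, Adamts or Timp and a number, with or without a final a or b for an MMP. This gave 45 of the 55471 genes counted, 22 of them Mmp, 19 Adamts and 4 Timp, and 33 of the 45 had enough reads to be tested together with 17522 genes in all. RNA was sequenced from WT MEFs, from LKB1 knockout MEFs (Lkb1-/-; LKB1 is encoded by Stk11), and from clones A1 and A2 of LKB1/CRTC2 knockout MEFs, which carry the LKB1 loss and a further CRISPR edit of Crtc2. Each genotype was left untreated or stimulated for 6 h with IL-1β at 0.1 ng/mL, with 3 libraries in each of the 8 groups. The WT and Lkb1-/- cells were each 1 immortalised 3T3 line, and A1 and A2 were each 1 clone derived from the Lkb1-/- line, so genotype and cell line cannot be told apart. Nothing states that libraries of a group came from separate cultures, so the p-values measure only the spread between these libraries, which may be technical.

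MMPs are zinc-dependent endopeptidases that cut collagens, gelatin, proteoglycans and many other extracellular proteins, and most are secreted as inactive proenzymes. ADAMTS proteases are secreted relatives with thrombospondin repeats, among them enzymes that cleave aggrecan and versican and enzymes that remove the N-terminal propeptides of fibrillar procollagens. TIMPs bind the active site of MMPs, and TIMP-3 also inhibits several ADAMTS enzymes. Fibroblasts are a main source of all of these in connective tissue, and IL-1β is a classical inducer of the collagenases and stromelysins.

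Of the 22 MMP genes, 9 lie side by side on chromosome 9 (GRCm38, chr9:7272514-7699585), in the order Mmp13, Mmp12, Mmp1b, Mmp3, Mmp10, Mmp8, Mmp27, Mmp20 and Mmp7, with no other protein-coding gene of the annotation inside the interval. The 250 bases before the RefSeq start (GRCm38.p6) were searched on both strands for the AP-1 motif TGANTCA, for the full cAMP response element TGACGTCA and for its core TGACG, which lies within the full element. A window was given for 31 of the 45 members. An AP-1 match lay in a window of 7 of the 9 cluster genes, against 0 of the 22 members elsewhere. These 7 were Mmp13, Mmp12, Mmp1b, Mmp3, Mmp10, Mmp20 and Mmp7. Of these, Mmp7 had 0 reads in all 24 libraries, and Mmp20 had 2 reads in 1 library and 0 in the others. Whether the motif goes with expression or with the response to IL-1β was not tested. In all RefSeq windows of the same length, 6.75% of 32817 held the AP-1 motif, against 20.6% of the 34 member windows. The full cAMP response element was in 0 member windows and in 1.55% of all windows, and its core was in 14.7% of member windows and 17.7% of all windows. The 5 cluster genes with enough reads to be tested are shown, written from the distal end to the base before the start, because the IL-1β results described further on turn on them. Capitals mark the AP-1 match, which began 35 bases before the start in Mmp13, 46 in Mmp3, 63 in Mmp10, 93 in Mmp1b and 44 in Mmp12.
Mmp13 (chr9:7272264-7272513, plus strand): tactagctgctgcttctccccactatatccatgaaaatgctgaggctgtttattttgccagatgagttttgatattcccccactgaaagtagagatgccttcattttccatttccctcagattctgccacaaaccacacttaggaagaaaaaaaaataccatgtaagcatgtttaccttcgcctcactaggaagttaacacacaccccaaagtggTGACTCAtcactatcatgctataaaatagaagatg
Mmp3 (chr9:7445572-7445821, plus strand): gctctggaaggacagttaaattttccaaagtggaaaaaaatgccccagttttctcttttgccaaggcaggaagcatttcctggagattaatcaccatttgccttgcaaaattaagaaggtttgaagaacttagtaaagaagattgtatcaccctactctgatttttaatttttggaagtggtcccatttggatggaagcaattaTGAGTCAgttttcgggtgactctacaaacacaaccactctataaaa
Mmp10 (chr9:7502092-7502341, plus strand): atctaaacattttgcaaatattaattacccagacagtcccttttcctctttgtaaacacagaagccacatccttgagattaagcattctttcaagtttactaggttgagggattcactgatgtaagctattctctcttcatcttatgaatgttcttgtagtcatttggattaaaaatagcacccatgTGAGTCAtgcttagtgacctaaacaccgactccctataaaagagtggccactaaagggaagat
Mmp1b (chr9:7388027-7388276, minus strand): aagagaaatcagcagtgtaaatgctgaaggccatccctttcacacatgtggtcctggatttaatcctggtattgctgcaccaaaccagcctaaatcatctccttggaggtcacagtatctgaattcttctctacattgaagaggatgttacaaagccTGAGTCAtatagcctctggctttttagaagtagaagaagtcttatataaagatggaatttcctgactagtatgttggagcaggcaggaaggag
Mmp12 (chr9:7347124-7347373, plus strand): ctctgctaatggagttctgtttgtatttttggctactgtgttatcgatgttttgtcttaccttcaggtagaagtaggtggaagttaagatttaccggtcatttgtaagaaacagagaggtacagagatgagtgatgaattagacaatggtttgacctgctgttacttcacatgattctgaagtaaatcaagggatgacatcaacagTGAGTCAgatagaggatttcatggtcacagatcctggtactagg
The Mmp12 window is that of the start nearer to Mmp3, and the window of its other RefSeq start had no match. A match is a string of letters, and binding was not measured here. Mmp2 and Mmp9, the gelatinases, had no window to search.

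The libraries held 38842901 to 48594394 reads on genes. Stk11 was lower in Lkb1-/- than in WT MEFs (log2 fold change -2.31 ± 0.07, FDR = 1.1e-16, edgeR), and Crtc2 was lower in A1 (-0.92 ± 0.07, FDR = 2.2e-09) and A2 (-0.70 ± 0.07, FDR = 9.9e-08) than in Lkb1-/- MEFs, although reads on both genes remained. The 9 fibroblast markers summed to 3930 to 7580 CPM (read counts scaled to library size, with TMM factors) in every library, with Thy1 at 0 in all WT libraries and Lum at 0 in all stimulated WT and all untreated A2 libraries. Within that sum, in untreated Lkb1-/- against WT MEFs, Dcn, Pdgfra and Pdgfrb were called higher and Col1a1, Col1a2 and Vim lower. Untreated, Dcn was at 0.357 to 0.483 CPM in WT and 205 to 228 CPM in Lkb1-/-, and Col1a2 at 595 to 912 CPM in WT and 45.0 to 73.4 CPM in Lkb1-/-. The 6 macrophage markers summed to at most 8.96 CPM, with Adgre1 or Ptprc at 0 throughout 7 of the 8 groups, and the 4 neutrophil markers to at most 4.44 CPM, with S100a9 at 0 in each group. Some members of the lists of other cell types moved with genotype. Csf1r, S100a8, Kdr and Epcam were called higher in Lkb1-/- than in WT MEFs in both treatments, Cd68 was higher and Ly6g lower in both clones than in Lkb1-/-, and S100a8 was lower in A1. S100a8 had 0 or 1 read in each WT library and 73 to 151 in each Lkb1-/- library, and Csf1r was at 0.0261 to 0.155 CPM in WT and 1.25 to 2.24 CPM in Lkb1-/-. The 4 chondrocyte markers summed to 35.3 to 44.5 CPM in WT libraries and to 121 to 261 CPM in the others. Acan and Sox9 were called higher and Matn3 lower in Lkb1-/- than in WT MEFs in both treatments. Acan had 0 to 3 reads in each WT library and 2920 to 4322 in each Lkb1-/- library, and Col2a1 had at most 35 in any library. The part of any marker of these lists in the differences between genotypes was not tested. The 4 endothelial markers summed to at most 3.85 CPM, the 5 epithelial markers to at most 0.447 CPM, and the 4 osteoblast markers to 60.3 to 93.6 CPM, with Ibsp at 0 in 7 of the 8 groups. In bulk RNA a change in level per cell and a change in the share of cells that express a gene cannot be told apart.

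**Figure D1:**
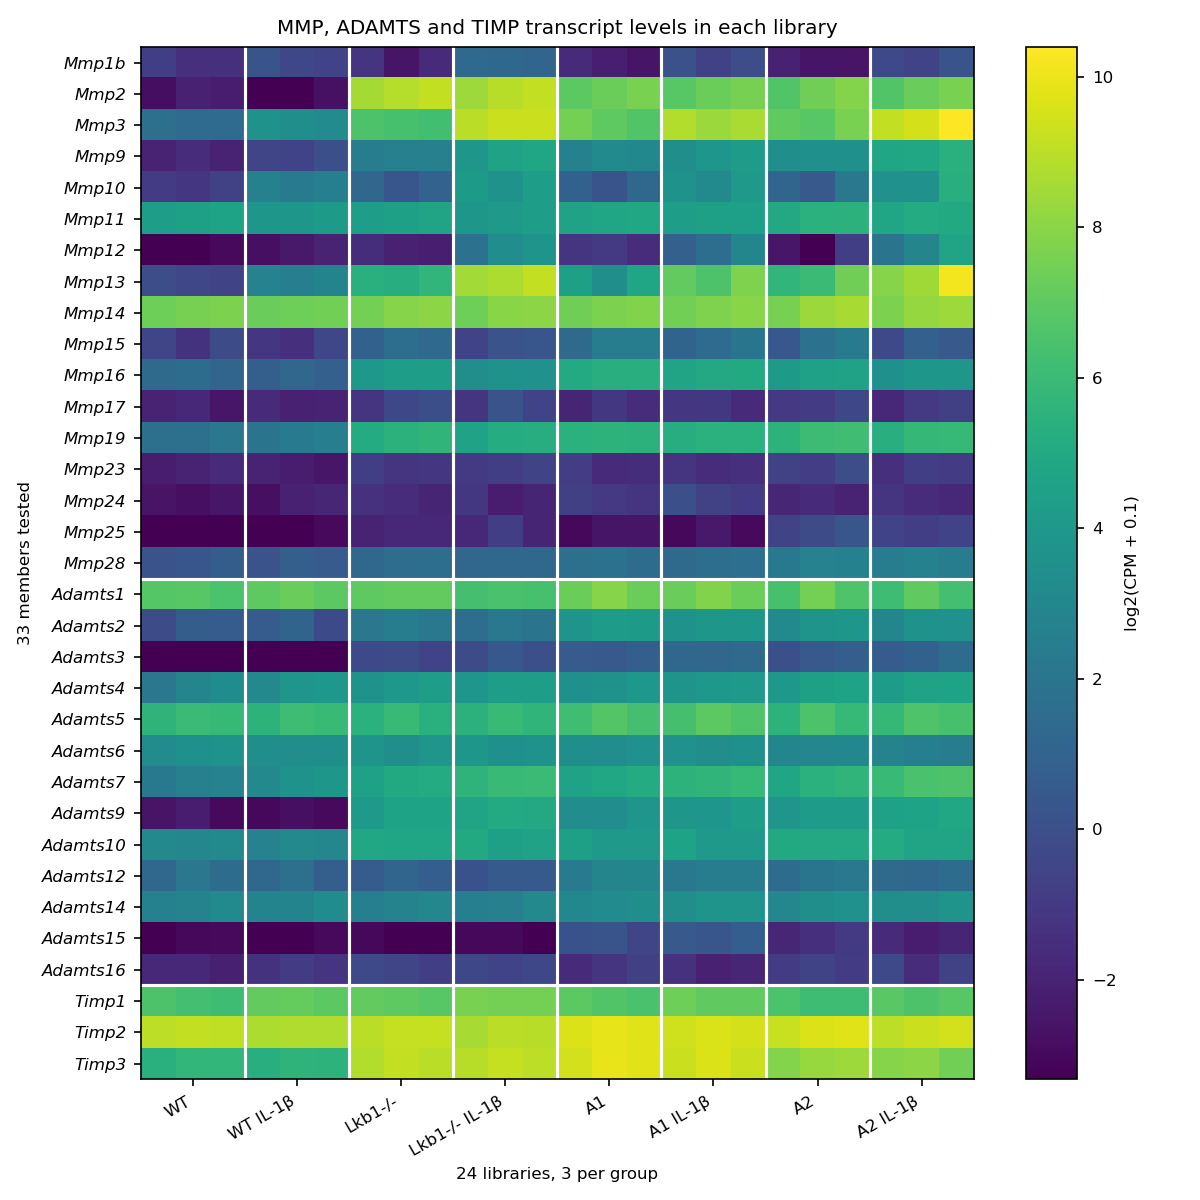
Transcript levels of the 33 members tested (rows) in each of the 24 libraries (columns, 3 per group), as log2(CPM + 0.1). Mmp2 and Adamts9 are dark in the 6 WT libraries and bright in the other 18, Mmp3, Mmp13 and Timp3 are darker in WT than elsewhere, and Mmp14, Adamts1 and Timp2 are bright in all 24.

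Divided by exon length, so that genes can be compared, the families differed most between groups in the MMPs. The 22 Mmp genes together reached 43.6 ± 4.23 RPKM (CPM per kilobase of exon, mean ± SD, n = 3) in untreated WT MEFs and 268 ± 35.8 RPKM in untreated Lkb1-/- MEFs, and the ranges of the libraries did not overlap. With IL-1β the same sums were 48.3 ± 2.16 and 708 ± 122 RPKM. The 4 Timp genes together stayed within 225 to 477 RPKM in all 24 libraries, so that their sum exceeded the MMP sum in every WT library and lay below it in every stimulated Lkb1-/- library. The Adamts sum lay between 30.8 and 74.2 RPKM throughout.

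**Figure D2:**
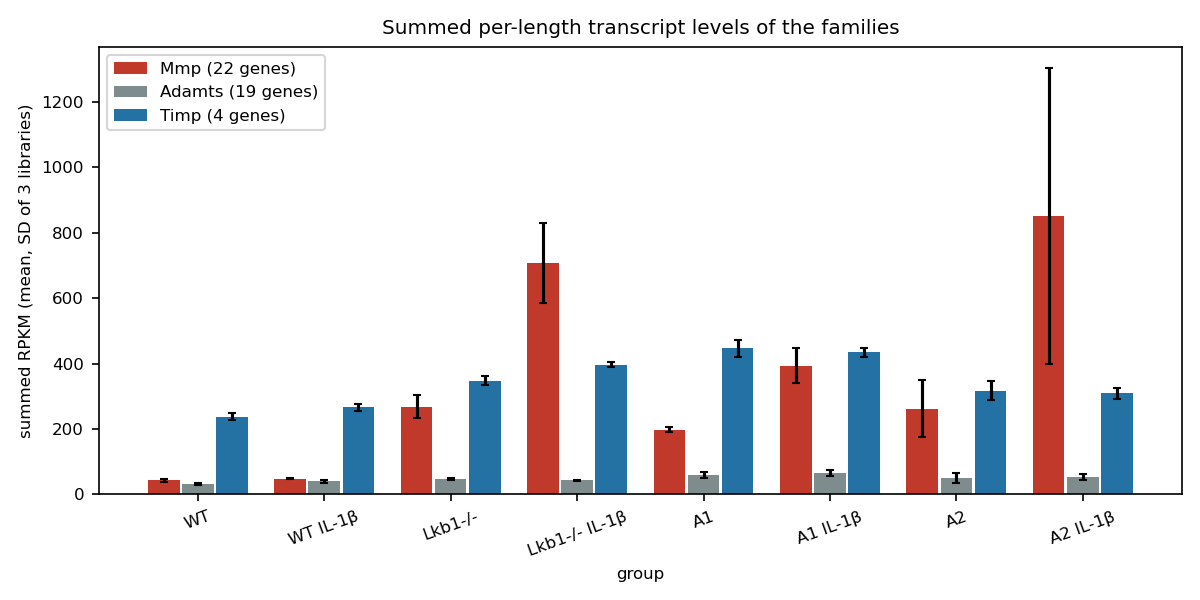
Summed level of each family in RPKM by group, as mean and SD of 3 libraries, from a zero baseline. The MMP bar grows from 43.6 in untreated WT to 708 in stimulated Lkb1-/- and 851 in stimulated A2 MEFs, where its SD is 451, while the TIMP bar stays between 237 and 447.

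Which genes made up each sum also changed. In untreated WT MEFs Mmp14, the membrane-anchored MT1-MMP that activates proMMP-2, gave 71.8% of the summed MMP RPKM. In untreated Lkb1-/- MEFs Mmp2 gave 51.5%, Mmp3 18.0% and Mmp14 14.3%, and with IL-1β Mmp3 gave 46.5% and Mmp13 23.6%. Among the TIMPs, Timp3 gave 2.62% of the sum in untreated WT and 17.7% in untreated Lkb1-/- MEFs. Adamts1, an aggrecan- and versican-cleaving enzyme, was the leading Adamts transcript in all 8 groups, with 32.7 to 63.6% of the sum.

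Loss of LKB1 was compared first in untreated cells. Of the 33 members tested, 22 were higher and 1 was lower in Lkb1-/- than in WT MEFs, where 30.1% and 25.8% of all genes tested were called in these directions (edgeR quasi-likelihood test, FDR under 0.05 over all genes tested). The median log2 fold change was 1.82 over the members and 0.04 over all genes tested. The filter on low counts used every group. Members such as Mmp2, Adamts9, Adamts3 and Mmp25, at 0 to 6 reads in each WT library, passed it only through other groups. Against WT these could be called only higher, in either treatment, and they are part of the counts and of the median. With IL-1β, 21 members were higher and 2 lower, against 30.2% and 27.1% of all genes. In both treatments 19 members were higher, and the share of all genes higher in both was not counted. The treatments share no library but compare the same WT and Lkb1-/- lines. With the replicate number as a block the stimulated comparison gave 24 higher and 3 lower, against 34.4% and 31.5% of all genes, adding Adamts4, Mmp14 and Mmp15 as higher and Adamts14 as lower. These 19 were 11 MMPs, 6 ADAMTS genes, Timp1 and Timp3.

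The gelatinases were higher in Lkb1-/- MEFs in both treatments. Mmp2, gelatinase A, was at 0.0447, 0.138 and 0.104 CPM in the untreated WT libraries, which is 2 to 6 reads, and at 370.1, 469.6 and 567 CPM in the untreated Lkb1-/- libraries. The log2 fold change was 12.23 ± 0.53, FDR = 3.8e-14. In stimulated WT MEFs no library held more than 2 Mmp2 reads, against 341, 493 and 569 CPM in the stimulated Lkb1-/- libraries. With 3 reads per library taken as the floor, this is at least 6330-fold higher (FDR = 3.4e-14). The transcript was thus close to the detection limit in all 6 WT libraries and abundant in all 6 Lkb1-/- libraries. Mmp9, gelatinase B, was lower in level but also separated the genotypes, at 0.156, 0.230 and 0.156 CPM in untreated WT and 5.46, 6.13 and 6.14 CPM in untreated Lkb1-/- MEFs (5.0 ± 0.33, FDR = 3.1e-11).

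The collagenase Mmp13 and the stromelysins followed. Mmp13, which cleaves fibrillar collagen, was at 0.849, 0.645 and 0.6 CPM in untreated WT and 42.5, 36.8 and 52.2 CPM in untreated Lkb1-/- MEFs (5.96 ± 0.70, FDR = 2.4e-07). Mmp3, stromelysin-1, was at 3.26, 2.69 and 2.66 CPM against 94.6, 84.5 and 76.2 CPM (4.88 ± 0.32, FDR = 3.6e-11). Mmp10, stromelysin-2, was low in both, at 0.424, 0.345 and 0.548 CPM against 2.22, 1.18 and 1.90 CPM (2.01 ± 0.59, FDR = 0.0059). The libraries of the genotypes did not overlap for any of these 3 genes. Mmp11, stromelysin-3, was not called (0.03 ± 0.14, FDR = 0.86).

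Mmp1b and Mmp12, the neighbours of Mmp13, separated the genotypes by test in stimulated cells. Mmp12, the macrophage metalloelastase, had at most 1 read in an untreated WT library and 5 to 11 reads in an untreated Lkb1-/- library (FDR = 0.14). With IL-1β it was at 0.0494, 0.0934 and 0.155 CPM in WT and 3.41, 10.6 and 13.4 CPM in Lkb1-/- MEFs (6.49 ± 0.95, FDR = 5e-06). Mmp1b, one of the mouse relatives of interstitial collagenase, was at 0.491, 0.276 and 0.261 CPM in untreated WT and 0.340, 0.0696 and 0.214 CPM in untreated Lkb1-/- MEFs, which overlapped (-0.72 ± 0.47, FDR = 0.2). With IL-1β it was 1.58 ± 0.36 log2 units higher in Lkb1-/- MEFs (FDR = 0.00068). The transcribed regions of Mmp12 and Mmp1b overlap on opposite strands, and the counts kept the strands apart.

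Of the membrane-anchored enzymes, Mmp14 was high everywhere, at 164, 192 and 203 CPM in untreated WT and 188, 239 and 262 CPM in untreated Lkb1-/- MEFs. These values overlapped (0.30 ± 0.22, FDR = 0.26). With IL-1β the difference was 0.44 ± 0.22 (FDR = 0.095), and with the replicate number as a block the FDR was 0.00066. Mmp16, MT3-MMP, was at 2.59, 2.81 and 2.16 CPM in untreated WT and 16.1, 19.9 and 19.7 CPM in untreated Lkb1-/- MEFs (2.87 ± 0.15, FDR = 1.1e-12). Mmp15, Mmp17, Mmp24 and Mmp25 were also called higher in untreated Lkb1-/- MEFs, and each stayed under 3 CPM in these libraries. Mmp19, a secreted MMP outside these groups, had a mean of 3.55 ± 0.538 CPM in WT and 43.6 ± 8.64 CPM in Lkb1-/- MEFs (SD, n = 3; 3.62 ± 0.22, FDR = 8.8e-12), and Mmp23 and Mmp28 were higher in both treatments.

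Among the ADAMTS genes the largest fitted fold was that of Adamts9, a versican- and aggrecan-cleaving enzyme. It was at 0.0670, 0.115 and 0.0261 CPM in untreated WT and 17.2, 25.2 and 24.4 CPM in untreated Lkb1-/- MEFs (8.23 ± 0.31, FDR = 4.3e-15), and at least 407-fold higher with IL-1β. Of the procollagen N-propeptidases, Adamts3 had 0 reads in each of the 6 WT libraries and 0.724, 0.812 and 0.571 CPM in untreated Lkb1-/- MEFs, a level at least 9.84-fold higher (FDR = 6.1e-08). Adamts2 was 1.89 ± 0.31 log2 units higher (FDR = 2.2e-05), while Adamts14 was not called (-0.10 ± 0.19, FDR = 0.68). Adamts7 and Adamts10 were higher in both treatments, as was Adamts16, whose highest value in these libraries was 0.724 CPM.

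Adamts4 and Adamts5 are the aggrecanases best known from cartilage. Adamts4 was at 4.31, 7.34 and 10.1 CPM in untreated WT and 12.6, 15.6 and 20.2 CPM in untreated Lkb1-/- MEFs, with no overlap (1.16 ± 0.26, FDR = 0.00065). With IL-1β its difference was 0.51 ± 0.25 (FDR = 0.091, and 0.00035 with the replicate block). Adamts5 was at 48.8, 65.4 and 58.2 CPM in untreated WT and 43.8, 59.6 and 41.1 CPM in untreated Lkb1-/- MEFs, which overlapped (-0.25 ± 0.24, FDR = 0.4). Adamts1, its neighbour on chromosome 16, was at 111, 114 and 91.5 CPM in untreated WT and 129.8, 139 and 139.7 CPM in untreated Lkb1-/- MEFs, higher with no overlap but not called (0.37 ± 0.24, FDR = 0.21). It was called lower in stimulated Lkb1-/- MEFs, at 129, 151 and 122 CPM in WT and 81.8, 87.6 and 84.2 CPM in Lkb1-/- (-0.66 ± 0.24, FDR = 0.025). This call was lost without stimulated WT library 2 (FDR = 0.091) or stimulated Lkb1-/- library 1 (FDR = 0.065). Adamts12 was the one member lower in both treatments, at 2.39, 4.17 and 2.74 CPM in untreated WT and 1.47, 2.16 and 1.64 CPM in untreated Lkb1-/- MEFs (-0.82 ± 0.25, FDR = 0.009), and without untreated WT library 2 its FDR was 0.092.

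Of the inhibitors, Timp3 separated the genotypes most. Timp3, which binds to the extracellular matrix, was at 42.2, 54.9 and 54.3 CPM in untreated WT and 444, 564 and 498 CPM in untreated Lkb1-/- MEFs (3.31 ± 0.18, FDR = 9.3e-13), with a like difference under IL-1β (3.57 ± 0.18). Timp1 was higher by less, at 93.4, 78.1 and 69.1 CPM against 135, 126 and 114 CPM (0.64 ± 0.13, FDR = 0.00026). Timp2, which also takes part in proMMP-2 activation by MT1-MMP, was among the highest members in each library and was not called, at 523, 571 and 549 CPM against 509, 594 and 592 CPM (0.05 ± 0.12, FDR = 0.78). Timp4 had at most 4 reads in a library and was not tested. Timp1, Timp3 and Timp4 each overlap a synapsin gene on the opposite strand, and Timp2 overlaps Cep295nl on the same strand.

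**Figure D3:**
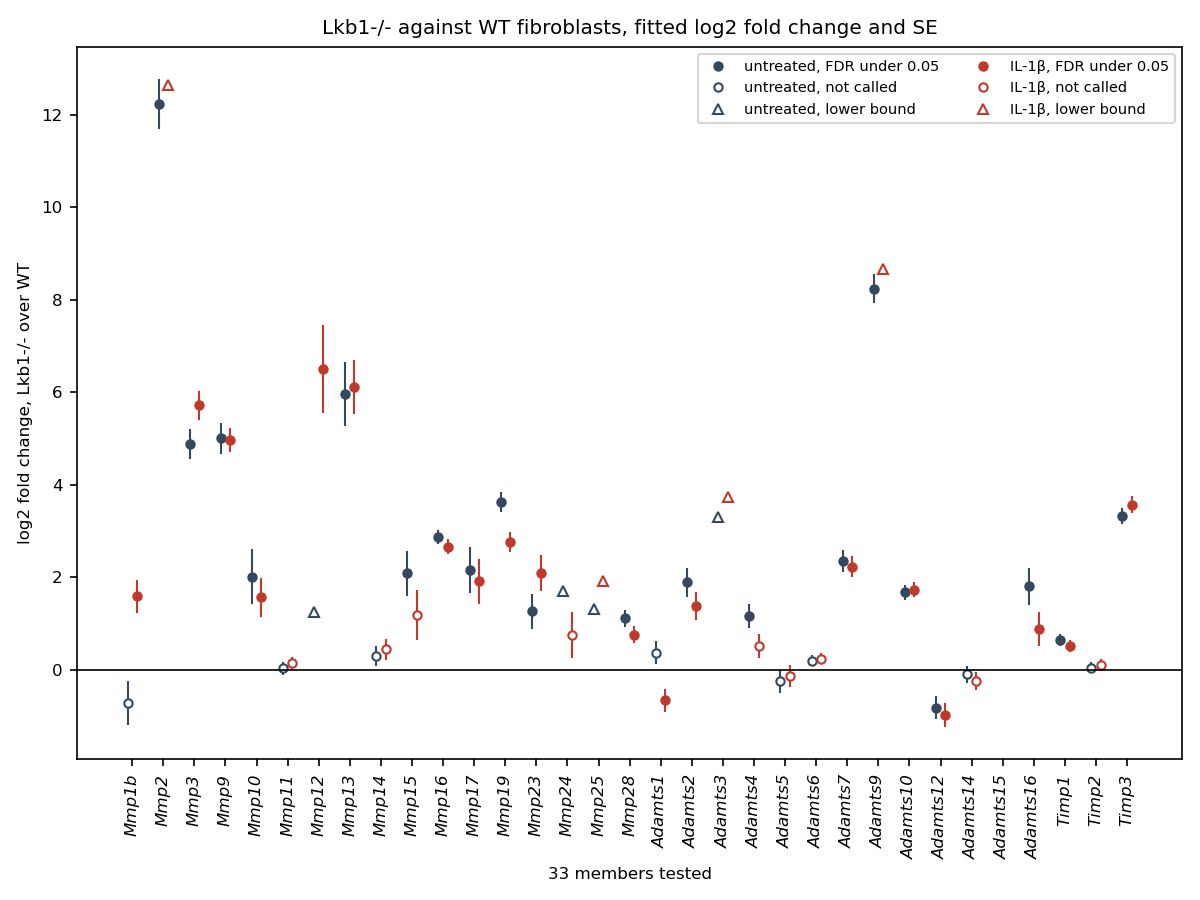
Fitted log2 fold change of Lkb1-/- over WT MEFs with its SE for the 33 members, untreated (grey) and with IL-1β (red). Filled circles are calls, open circles are not called, and triangles are lower bounds where all WT libraries held at most 3 reads. Adamts15 has no point because both groups were at that floor. Most filled points lie above 0, with Mmp2 and Adamts9 highest and Adamts12 below 0 in both treatments.

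With IL-1β, Mmp3, Mmp9, Mmp10 and Mmp13 were called higher in all 4 genotypes, and Mmp1b and Mmp12 in Lkb1-/-, A1 and A2 MEFs. The genotypes share no library, but A1 and A2 derive from the Lkb1-/- line. The share of all genes higher in all 4 was not counted, and some of these calls were lost under alternatives given below. In WT MEFs Mmp1b rose in the fit with the replicate block (FDR = 0.028), and the difference of its response from that of Lkb1-/- MEFs was called by DESeq2 but not by edgeR without the block (FDR = 0.16). In WT MEFs 6 members rose and 0 fell, against 1.53% and 0.731% of all genes tested, and in Lkb1-/- MEFs 8 rose and 1 fell, against 2.65% and 2.09% (edgeR). In A1 6 rose and 0 fell, against 1.2% and 0.788%, and in A2 9 rose and 2 fell, against 2.81% and 2.86%. At an unadjusted p under 0.05 edgeR had 3 members lower in WT and 2 in A1, and DESeq2 called 1 lower in WT and 0 in A1. The share of all genes lower at that unadjusted p was not counted. Of the 9 genes of the chromosome 9 cluster, 5 had enough reads to be tested, and of these 3 were called higher in WT and 5 in each of the other genotypes. Mmp12 had at most 22 reads in an untreated library and 2 to 6 in a stimulated WT library. Mmp9 was the MMP called higher among the 12 tested outside the cluster, in each genotype. Adamts7 and Adamts9 were the ADAMTS genes called higher in at least 1 genotype in this fit.

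Mmp3 went from 3.26, 2.69 and 2.66 CPM to 12.6, 11.1 and 9.85 CPM in WT MEFs (1.96 ± 0.32, FDR = 0.00078). In Lkb1-/- MEFs it went from 94.6, 84.5 and 76.2 to 507, 629 and 628 CPM (2.79 ± 0.27, FDR = 6.9e-07). All stimulated libraries lay above all untreated ones within a genotype, and every untreated Lkb1-/- library lay above every stimulated WT library. In A1 Mmp3 went from 185, 129.5 and 102 to 454, 328 and 401 CPM (1.5 ± 0.26, FDR = 0.0017). In A2 it went from 134, 113 and 203 to 569.7, 730.0 and 1349.9 CPM (2.56 ± 0.27, FDR = 1.7e-06), with library 3 the highest of its group in both treatments.

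Mmp13 rose in each genotype, from different untreated levels. In WT MEFs it went from 0.849, 0.645 and 0.6 to 6.66, 5.72 and 7.09 CPM (3.20 ± 0.74, FDR = 0.02), and in Lkb1-/- MEFs from 42.5, 36.8 and 52.2 to 356, 420.0 and 569.8 CPM (3.35 ± 0.51, FDR = 2e-04). The WT call was lost, with an FDR of 0.05 to 0.11 and a log2 fold change of 3.09 to 3.37, when any 1 WT library other than stimulated library 2 was left out. In A1 Mmp13 went from 21.8, 11.4 and 26.6 to 137, 94.0 and 214 CPM (2.89 ± 0.51, FDR = 0.0019). In A2 it went from 52.6, 64.5 and 174 to 238, 348 and 1132 CPM (2.56 ± 0.49, FDR = 0.002), and library 3 again stood far above the other A2 libraries of the same treatment. Without untreated A2 library 3 the value was 3.28, and without stimulated A2 library 3 it was 1.63. The A2 call was lost when the A2 libraries were fitted alone (FDR = 0.14), and the WT call with the newer quasi-likelihood method (FDR = 0.062). Within each genotype the treatments did not overlap.

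Without IL-1β, Mmp10 lay between 0.345 and 4.45 CPM and Mmp12 between 0 and 0.484 CPM over the 12 untreated libraries. With IL-1β Mmp10 was at 6.39, 4.72 and 6.00 CPM in stimulated WT MEFs (3.70 ± 0.55, FDR = 0.00031 against untreated) and at 18.0, 12.5 and 19.96 CPM in stimulated Lkb1-/- MEFs (3.25 ± 0.47, FDR = 0.00011). Mmp12 rose from 0.249, 0.139 and 0.119 to 3.41, 10.6 and 13.4 CPM in Lkb1-/- MEFs (5.72 ± 0.87, FDR = 0.00021) and reached 3.80, 7.48 and 26.1 CPM in A2. Without untreated A2 library 3 the log2 fold changes in A2 were 8.07 for Mmp12 and 3.62 for Mmp10, and without stimulated A2 library 3 they were 4.91 and 2.24, beside 6.02 and 3.02 with all libraries. The Mmp10 call in A2 was lost when the A2 libraries were fitted alone (FDR = 0.061). The Mmp12 call in A1 (3.66 ± 0.80, FDR = 0.016) was lost without any 1 untreated A1 library or stimulated library 3 (FDR = 0.067 to 0.099), and with the newer quasi-likelihood method (FDR = 0.058). Mmp1b rose from 0.340, 0.0696 and 0.214 to 2.45, 2.41 and 2.16 CPM in Lkb1-/- MEFs (3.47 ± 0.41, FDR = 1.1e-05) and was at 1.09, 0.677 and 0.569 CPM in stimulated WT MEFs (1.17 ± 0.41, FDR = 0.19, and 0.028 with the block).

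Mmp9 is on another chromosome and rose in each genotype. It went from 0.156, 0.230 and 0.156 to 0.617, 0.584 and 0.931 CPM in WT MEFs (1.94 ± 0.42, FDR = 0.012) and from 5.46, 6.13 and 6.14 to 15.5, 23.9 and 26.8 CPM in Lkb1-/- MEFs (1.90 ± 0.21, FDR = 4.2e-06). The smallest change was in A1, from 6.46, 9.36 and 8.48 to 11.4, 14.8 and 19.4 CPM (0.91 ± 0.21, FDR = 0.022). The WT call was lost without untreated library 1 (FDR = 0.054) or stimulated library 3 (FDR = 0.058), and with the newer quasi-likelihood method (FDR = 0.18). In A1 it was lost without untreated library 1 or 3 or stimulated library 2 or 3 (FDR = 0.06 to 0.13).

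**Figure D4:**
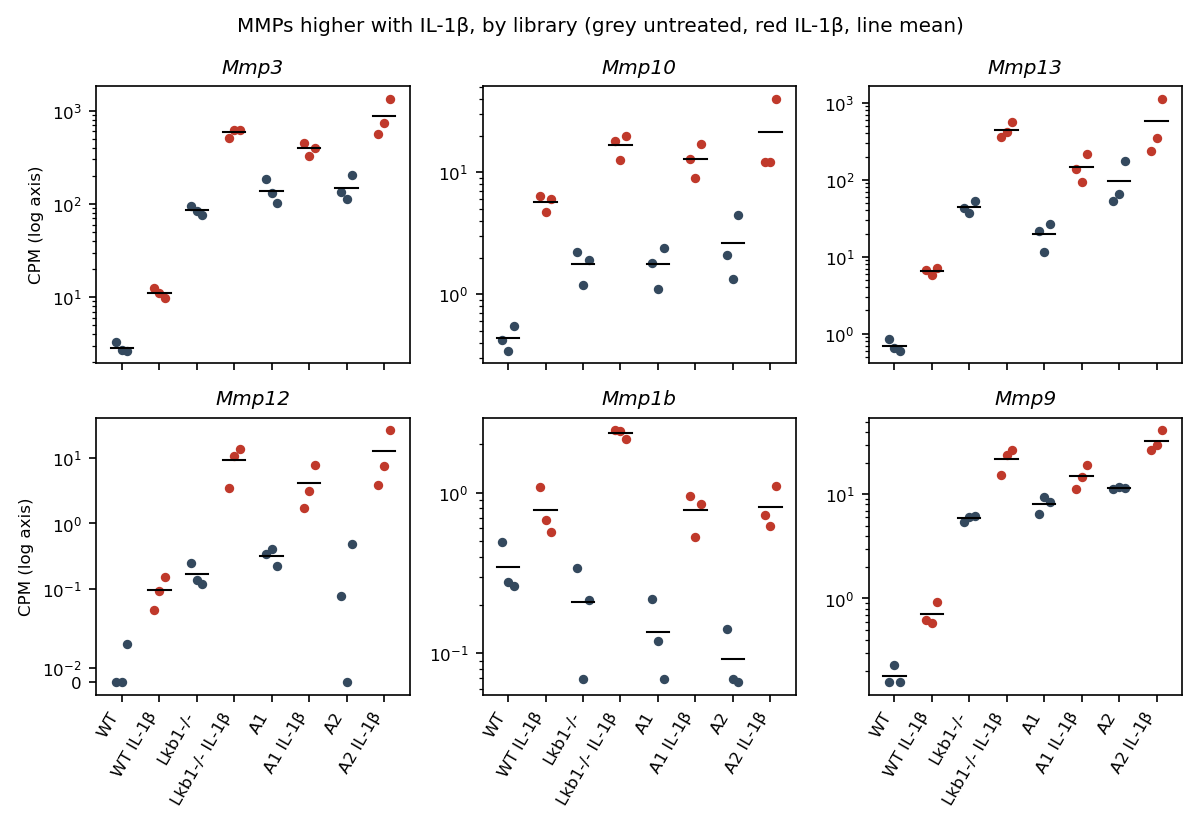
CPM of 6 MMPs in each library by group, on log axes (linear below 0.05 CPM for Mmp12), grey untreated and red with IL-1β, with a line at the mean where no library was at 0. Red points lie above the grey points of the same genotype in all 6 panels, and the WT points of Mmp3, Mmp13 and Mmp9 lie far below those of the other genotypes.

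Mmp2 and the TIMPs lie outside the cluster. Mmp2 was at 469 ± 98.6 CPM untreated and 468 ± 116 CPM stimulated in Lkb1-/- MEFs (SD, n = 3; -0.003 ± 0.27, FDR = 1). Timp1 rose from 93.4, 78.1 and 69.1 to 137, 142 and 123 CPM in WT (0.74 ± 0.13, FDR = 0.0019) and from 135, 126 and 114 to 202, 183 and 185 CPM in Lkb1-/- MEFs (0.61 ± 0.13, FDR = 0.0058). It also rose in A2 (0.51 ± 0.13, FDR = 0.021), a call lost without any 1 of stimulated libraries 1 and 3 or untreated libraries 2 and 3 (FDR = 0.075 to 0.13), with upper quartile scaling (FDR = 0.052) or with the A2 libraries fitted alone (FDR = 0.18). In A1 its change was 0.45 ± 0.13 (FDR = 0.089, and 0.00026 with the replicate block). In Lkb1-/- MEFs the Timp1 FDR was 0.058 without untreated library 3.

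Libraries with the same replicate number deviated together in these comparisons, and a fit with the number as a block called more members. In WT MEFs it called 9 higher and 3 lower, against 4.7% and 4.59% of all genes, in Lkb1-/- 9 and 6, against 5.77% and 9.07%, in A1 10 and 3, against 3.68% and 5.94%, and in A2 10 and 7, against 7.27% and 10.6%. Timp2, Mmp11 and Mmp16 fell in each of the 4 genotypes in that fit. The Timp2 log2 fold changes were -0.36 ± 0.07 in WT (FDR = 0.0019), -0.31 ± 0.07 in Lkb1-/- (FDR = 0.0045), -0.26 ± 0.07 in A1 (FDR = 0.025) and -0.30 ± 0.07 in A2 (FDR = 0.0047). Without the block its FDR ran from 0.18 to 0.47. Mmp15 had larger falls with the block, in Lkb1-/- (-1.41 ± 0.30, FDR = 0.0018) and A2 (-1.29 ± 0.28, FDR = 0.0021), Mmp19 fell in the same genotypes, and Adamts1 fell in Lkb1-/- (-0.69 ± 0.15, FDR = 0.0019). Timp3 fell in A2 with the block (-0.36 ± 0.11, FDR = 0.02). Mmp1b, Adamts4 (FDR = 5.9e-05) and Mmp19 (FDR = 0.043) rose in WT MEFs with the block, as did Adamts14 in A1 and Adamts5 in A2.

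Adamts7, a COMP-cleaving enzyme, was called higher with IL-1β in WT, Lkb1-/- and A2 MEFs. Its mean went from 5.85 ± 1.11 to 12.3 ± 3.36 CPM in WT (1.07 ± 0.24, FDR = 0.018) and from 29.8 ± 5.83 to 57.5 ± 8.37 CPM in Lkb1-/- MEFs (0.95 ± 0.22, FDR = 0.012). In A2 the log2 fold change was 1.03 ± 0.22, FDR = 0.0054, and in A1 the change was 0.83 ± 0.22 (FDR = 0.058, and 9.2e-08 with the block). Mmp16 fell in Lkb1-/- (-0.62 ± 0.14, FDR = 0.0075) and A2 MEFs (-0.60 ± 0.14, FDR = 0.0086). With the block it also fell in WT (-0.42 ± 0.12, FDR = 0.025) and A1 (-0.33 ± 0.07, FDR = 0.0056). Without the block the Lkb1-/- call was lost without untreated library 2 (FDR = 0.051) or stimulated library 1 (FDR = 0.052), and the A2 call when the A2 libraries were fitted alone (FDR = 0.11). Adamts9 was called higher (0.59 ± 0.17, FDR = 0.043) and Adamts6 lower (-0.42 ± 0.12, FDR = 0.049) in A2. With the block Adamts9 was called higher in Lkb1-/- (0.44 ± 0.10, FDR = 0.0027), A1 (0.51 ± 0.10, FDR = 0.0022) and A2 (FDR = 0.00014), and Adamts6 kept its call in A2 (FDR = 0.012). In the fit without the block the Adamts9 call was lost without any 1 of untreated libraries 1 and 2 or stimulated libraries 2 and 3 (FDR = 0.06 to 0.11), with unstranded counts (FDR = 0.074) or with the A2 libraries fitted alone (FDR = 0.079). The Adamts6 call was lost without any 1 of the A2 libraries other than stimulated library 1 (FDR = 0.068 to 0.23), and under each other alternative except the block and DESeq2 (FDR = 0.055 to 0.3).

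Whether the response itself differed between genotypes was tested directly. Of the 33 members, 0 were called in the difference of the Lkb1-/- and WT responses by edgeR without the replicate block, where 0.245% of all genes were called, and 3 had an unadjusted p under 0.05. These were Mmp1b, Adamts1 and Mmp19, and the share of all genes at that unadjusted p was not counted. The Mmp1b response was 2.30 ± 0.59 log2 units larger in Lkb1-/- MEFs (edgeR unadjusted p = 8e-04), and DESeq2 called it as its 1 member. For Mmp13 the difference was 0.15 ± 0.98 and for Mmp3 0.83 ± 0.41. With the block 4 members were called, against 1.77% of all genes, although these groups did not meet the pairing rule given below. The response in Lkb1-/- MEFs was higher for Mmp1b and lower for Adamts1, Adamts4 and Mmp19 in that fit.

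The clones tested what a further edit of Crtc2, a coactivator of CREB, changed on the LKB1 knockout background. Both clones were set against the same Lkb1-/- libraries, so their values are given side by side. In untreated cells A1 had 10 members higher and 5 lower, against 18.9% and 16.4% of all genes, and A2 had 12 higher and 4 lower, against 17.1% and 15.1%. With IL-1β the counts were 11 and 9 in A1, against 19.4% and 17.3%, and 10 and 5 in A2, against 17.1% and 15.8%. Same-numbered libraries deviated together in the stimulated comparisons and in untreated A2 against Lkb1-/-, and there the replicate block added calls. It gave 18 higher and 5 lower in untreated A2, against 24.5% and 21.4% of all genes, 14 and 12 in stimulated A1, against 25.8% and 23.3%, and 17 and 5 in stimulated A2, against 24.4% and 22.1%. In stimulated A1 the added calls were Mmp11, Mmp19 and Timp3 higher and Mmp3, Mmp12 and Mmp17 lower, with Mmp12 at -1.22 ± 0.32 log2 units (FDR = 0.0028). In A2 Adamts4, Adamts5, Adamts7, Mmp14 and Mmp16 were added as higher in both treatments. Mmp13 higher and Adamts9 lower were added in untreated A2, and Mmp3 and Mmp25 higher in stimulated A2. For Mmp13, untreated A2 library 3 lay far above the other untreated A2 libraries, as did stimulated A2 library 3 for Mmp3.

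Mmp2 was lower in both clones. Untreated, it was at 125, 159 and 199 CPM in A1 (-1.54 ± 0.28, FDR = 0.00016) and 104, 170.3 and 228 CPM in A2 (-1.49 ± 0.28, FDR = 0.00029), against 370.1, 469.6 and 567 CPM in Lkb1-/- MEFs. All clone libraries lay below all Lkb1-/- libraries and far above all WT libraries. With IL-1β the log2 fold changes were -1.60 ± 0.28 in A1 and -1.62 ± 0.28 in A2. Mmp1b was lower in both clones with IL-1β, at 0.956, 0.529 and 0.849 CPM in A1 (-1.59 ± 0.36, FDR = 0.0014) and 0.728, 0.616 and 1.10 CPM in A2 (-1.52 ± 0.35, FDR = 0.0021).

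With IL-1β, Mmp13, Mmp3 and Mmp9 were each higher in A2 than in A1. Against Lkb1-/- MEFs, in stimulated cells Mmp13 was -1.60 ± 0.47 log2 units from Lkb1-/- in A1 (FDR = 0.011) and 0.35 ± 0.46 in A2 (FDR = 0.61). Without stimulated A1 library 2 the A1 value was -1.35 (FDR = 0.063). In CPM, stimulated A2 libraries 1 and 2 lay below every stimulated Lkb1-/- library for Mmp13, and A2 library 3 lay above them all. Mmp3 in untreated cells was higher in A1 (0.71 ± 0.26, FDR = 0.036) and in A2 (0.82 ± 0.26, FDR = 0.018). The A1 call was lost without A1 library 1 or 2 or Lkb1-/- library 2 or 3 (FDR = 0.055 to 0.23), and the A2 call without A2 library 3 or Lkb1-/- library 2 or 3 (FDR = 0.053 to 0.11). In stimulated cells Mmp3 was -0.58 ± 0.25 in A1 and 0.59 ± 0.25 in A2 (both FDR = 0.083), and with the block these gave FDR = 0.037 and 0.047. For Mmp3, stimulated A2 library 3 lay far above the other A2 libraries and every Lkb1-/- library, and A2 library 1 lay within the Lkb1-/- range. Mmp9 was higher in untreated A2 (0.97 ± 0.21, FDR = 0.0012), and in stimulated cells it was lower in A1 (-0.54 ± 0.20, FDR = 0.04) and higher in A2 (0.56 ± 0.20, FDR = 0.033). The A1 call was lost without A1 library 1 or 2 or Lkb1-/- library 2 or 3 (FDR = 0.1 to 0.2), with unstranded counts (FDR = 0.064) or with the 2 groups fitted alone (FDR = 0.091). The A2 call was lost without A2 library 3 or Lkb1-/- library 1 or 2 (FDR = 0.051 to 0.19) or with the 2 groups fitted alone (FDR = 0.099).

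Timp3 lay on opposite sides of Lkb1-/- MEFs in the clones. It was at 707, 977 and 869 CPM in untreated A1 (0.76 ± 0.16, FDR = 0.00079) and 227, 309 and 338 CPM in untreated A2 (-0.78 ± 0.16, FDR = 0.00073), so that Lkb1-/- MEFs lay between the clones with no overlap on either side. With IL-1β it was 0.38 ± 0.16 in A1 (FDR = 0.069, and 0.0046 with the block) and -1.23 ± 0.16 in A2 (FDR = 6.1e-06). Timp1 was lower in untreated A2, at 89.6, 69.1 and 69.5 CPM (-0.71 ± 0.13, FDR = 0.00024), and its difference in untreated A1 was -0.26 ± 0.13 (FDR = 0.14). In stimulated cells it was lower in A1 (-0.41 ± 0.13, FDR = 0.015) and in A2 (-0.81 ± 0.13, FDR = 6e-05), and the A1 call was lost without A1 library 2 or 3 or Lkb1-/- library 1 (FDR = 0.056 to 0.09). Timp2 was higher in both clones, at 827, 937 and 864 CPM in untreated A1 (0.63 ± 0.12, FDR = 0.00039) and 602, 828 and 859.9 CPM in untreated A2 (0.43 ± 0.12, FDR = 0.0096). In stimulated A2 the Timp2 FDR was 0.0093, and 0.064 without Lkb1-/- library 1.

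**Figure D5:**
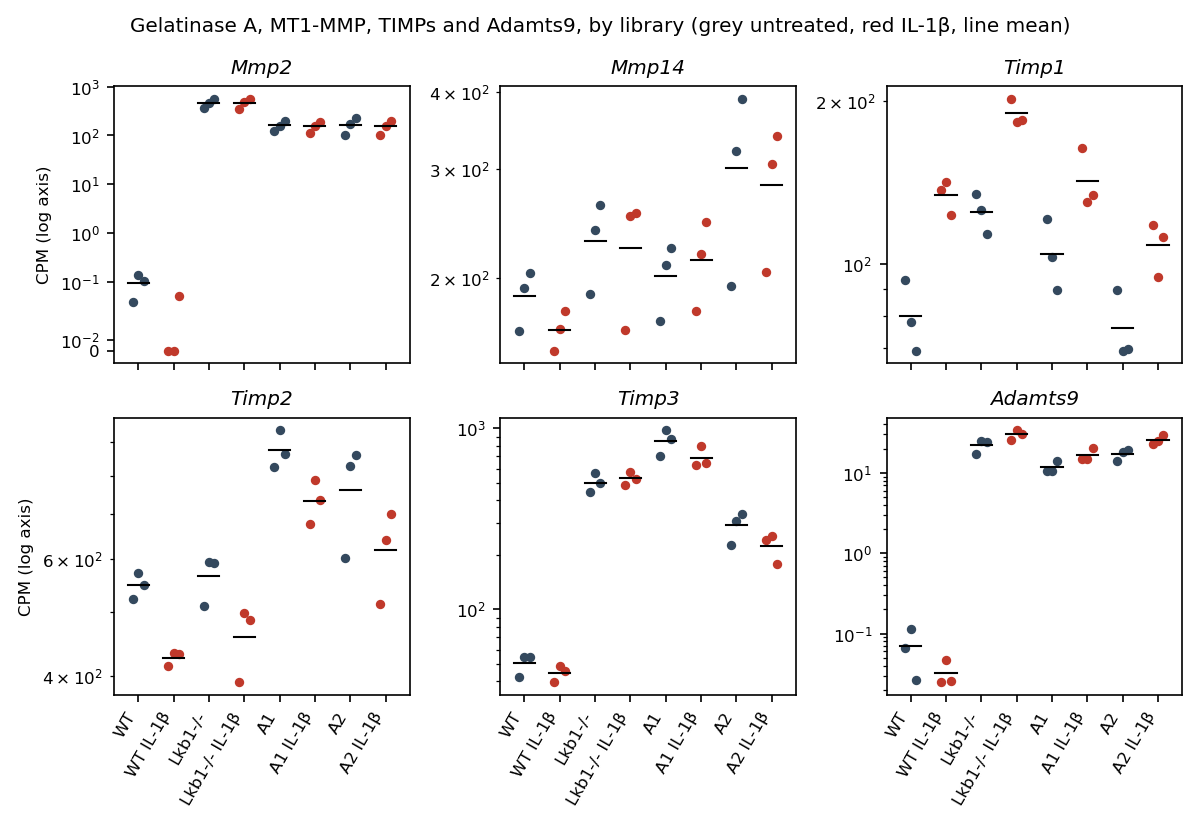
CPM of Mmp2, Mmp14, Timp1, Timp2, Timp3 and Adamts9 in each library by group, on log axes (linear below 0.05 CPM for Mmp2), grey untreated and red with IL-1β, with a line at the mean where no library was at 0. Mmp2 and Adamts9 sit near 0 in WT, Timp3 is highest in A1 and lower in A2 than in Lkb1-/- MEFs, and Mmp14 overlaps across the genotypes.

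Several ADAMTS genes were higher in both clones than in Lkb1-/- MEFs. Adamts2 was at 13.6, 19.1 and 18.0 CPM in untreated A1 (1.84 ± 0.27, FDR = 2.3e-05) and 8.93, 13.5 and 15.4 CPM in untreated A2 (1.42 ± 0.27, FDR = 0.00042), against 4.21, 5.59 and 4.36 CPM in Lkb1-/- MEFs. The related propeptidases Adamts3 and Adamts14 were also called higher in both clones and both treatments, against the same Lkb1-/- libraries and beside 17.1 to 19.4% of all genes called higher in these comparisons. Adamts15 had at most 1 read in each WT and Lkb1-/- library and 1.00, 1.10 and 0.643 CPM in untreated A1, at least 13.1-fold higher (FDR = 2e-07). In untreated A2 it was at 0.181, 0.278 and 0.396 CPM, at least 4.09-fold higher (FDR = 5.9e-05). Adamts12, which was lower in Lkb1-/- than in WT MEFs, was higher in untreated A1 (1.92 ± 0.25, FDR = 4.7e-06) and A2 (1.06 ± 0.25, FDR = 0.0025).

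Without the block, other ADAMTS genes were called in 1 clone. Adamts9 was lower in untreated A1 (-0.92 ± 0.17, FDR = 0.00025), and in untreated A2 the difference was -0.38 ± 0.17 (FDR = 0.1, and 0.0037 with the block). Adamts6 was lower in untreated A2, at 7.82, 8.20 and 8.28 CPM against 13.9, 11.5 and 14.4 CPM in Lkb1-/- MEFs (-0.71 ± 0.12, FDR = 0.00012). Adamts5 was higher in untreated A1, at 72.3, 106 and 80.6 CPM (0.84 ± 0.24, FDR = 0.0098), with an FDR of 0.065 without A1 library 2. In A2 its values were 46.6, 93.0 and 57.8 CPM (0.45 ± 0.24, FDR = 0.17), with library 2 above the other libraries, and the FDR was 0.00076 with the block. Adamts1 was higher in stimulated A1 (1.07 ± 0.25, FDR = 0.0017), and in A2 its difference was 0.14 ± 0.24 (FDR = 0.73).

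Among the remaining MMPs, Mmp16 was higher in A1 in both treatments (1.00 ± 0.13, FDR = 6.4e-06 untreated), and its untreated difference in A2 was 0.21 ± 0.13 (FDR = 0.26, and 0.031 with the block). Mmp28, epilysin, was higher in A2 in both treatments, at 4.61, 6.69 and 6.49 CPM untreated against 2.42, 2.85 and 2.95 CPM in Lkb1-/- MEFs (1.11 ± 0.17, FDR = 4.8e-05), as were Mmp11 and Mmp19. Without the block Mmp14 was not called against Lkb1-/- MEFs in either clone, with log2 fold changes of -0.19 ± 0.22 in untreated A1 and 0.39 ± 0.22 in untreated A2. With the block it was called higher in A2, and the untreated FDR was 0.0035.

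The response to IL-1β was also compared between each clone and Lkb1-/- MEFs, a comparison added after its values were seen. By edgeR without the replicate block 0 of the 33 members were called in either clone, where 0.0285% of all genes were called for A1 and 0% for A2, and DESeq2 called 0 in both. In A1 2 members had an unadjusted p under 0.05. The Mmp3 response was -1.28 ± 0.36 (unadjusted p = 0.0019) and the Mmp9 response -1.0 ± 0.29 (unadjusted p = 0.0027) log2 units from that of Lkb1-/- MEFs, and each had an FDR of 1. With the block Mmp9 was the 1 member called for A1, with a smaller response, against 0.205% of all genes. The groups of that difference did not meet the pairing rule given below. In A2 3 members had an unadjusted p under 0.05, which were Adamts6, Mmp23 and Mmp25. For both clones the share of all genes at that unadjusted p was not counted.

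The clones were also compared with each other. Untreated, 8 members were higher and 7 lower in A2 than in A1, against 15.8% and 16.7% of all genes, and with IL-1β 10 were higher and 8 lower, against 15.1% and 15.6%. With the block the stimulated counts were 15 and 12, against 22.5% and 21.9%, with Adamts4, Mmp10, Mmp12, Mmp14 and Mmp19 added as higher and Adamts2, Adamts5, Mmp15 and Timp2 as lower. For Mmp10, stimulated A2 library 3 lay far above the other libraries of both clones in CPM, and in library 1 A2 lay below A1. Mmp13 was higher in A2 both untreated (2.28 ± 0.50, FDR = 0.0012) and stimulated (1.95 ± 0.48, FDR = 0.0035). Without untreated A2 library 3 the untreated value was 1.57 (FDR = 0.014). Without stimulated A2 library 3, which held 1132 CPM, the stimulated value was 0.98 (FDR = 0.067). Timp3 was lower in A2 untreated (-1.55 ± 0.16, FDR = 3.9e-07) and stimulated (-1.61 ± 0.16, FDR = 2.5e-07). Timp1 was lower in A2 too (-0.46 ± 0.13, FDR = 0.0095 untreated), a call lost without untreated A1 library 1 or A2 library 2 or 3 (FDR = 0.068 to 0.073) or with the 2 groups fitted alone (FDR = 0.065). Adamts15 (-1.68 ± 0.38, FDR = 0.0018), Adamts6 (-0.47 ± 0.12, FDR = 0.0046) and Mmp16 (-0.79 ± 0.13, FDR = 1e-04) were lower in untreated A2, and Mmp28 was higher (0.91 ± 0.17, FDR = 0.00031). Mmp14 was called higher in untreated A2 (0.58 ± 0.22, FDR = 0.047), but that call was lost without any 1 of the 6 libraries other than A2 library 1 (FDR = 0.058 to 0.23), with unstranded counts (FDR = 0.056) or with the 2 groups fitted alone (FDR = 0.081).

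Genes that activate, inhibit or tether these proteases were read from lists of other pathway genes, beside 30.1% of all genes called higher and 25.8% lower in untreated Lkb1-/- against WT MEFs. Of the 11 activation genes, 6 were tested, and in that comparison the plasminogen activators Plau and Plat were higher while Plaur, Furin and Pcsk6 were lower. Of 13 other inhibitors and clearance genes 8 were tested, and Reck, Serpine2, Thbs2 and the clearance receptor Lrp1 were higher while Thbs1 was lower. Reck, a membrane-anchored MMP inhibitor, had a log2 fold change of 2.38 ± 0.21, FDR = 3e-09. All 4 inducer and docking genes were called, with Bsg, Cd44 and Itgb3 higher and Itgav lower. Of the 7 ADAM sheddases tested 1 was higher (Adam15) and 3 were lower (Adam8, Adam9 and Adam10), and of 5 ADAMTS-like genes 1 was higher (Adamtsl4) and 3 lower (Adamtsl3, Adamtsl5 and Thsd4). With IL-1β Thbs1 fell in WT, A1 and A2, Plau fell in A1 and A2, Adamtsl3 fell in Lkb1-/-, A1 and A2, Serpine2 rose in Lkb1-/- and A2, and Cd44 rose in WT MEFs. The medians of the lists lay between -0.33 and 0.27 in all 4 genotypes.

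The 12 members not tested were Mmp7, Mmp8, Mmp20, Mmp21, Mmp27, Adamts8, Adamts13, Adamts17, Adamts18, Adamts19, Adamts20 and Timp4. Mmp7 and Adamts19 had 0 reads in all 24 libraries, and the highest value of the others was 17 reads or 0.424 CPM, for Adamts8 in 1 library. In the chromosome 9 cluster, the 4 genes beyond Mmp10, which are Mmp8, Mmp27, Mmp20 and Mmp7, had at most 7 reads in a library. Mmp1a, which matched the symbol rule but is annotated as a polymorphic pseudogene, held 0 to 17 reads per library and was not counted as a member.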

How the data were processed

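RNA-seq libraries were made from 8 groups of MEFs, 3 per group, and the genotypes and treatments were taken from the sample labels. The authors trimmed 50 bp reads with Trim Galore 0.6.0, aligned them to GRCm38 with STAR 2.7.8a and deposited STAR's counts of uniquely mapped reads per gene for each strand setting. The deposited counts of the second-strand column, which held 95.5 to 96.0% of the strand-assigned reads, were used as they stand. Lines that name no gene, 26.7 to 34.4% of a library, were left out of the totals of 38842901 to 48594394 counts. Gene names, biotypes and exon lengths came from GENCODE M21, and promoter windows from RefSeq.

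Genes were kept by filterByExpr (minimum count 10, minimum total 15) and scaled by TMM. All 24 libraries were fitted together in edgeR 4.0.16 (R 4.3.3, limma 3.58.1) with 1 coefficient per group, using the quasi-likelihood test, and p-values were adjusted by Benjamini-Hochberg over the 17522 genes tested. Log2 fold changes are given ± SE. CPM values are TMM-scaled and RPKM is CPM per kilobase of exon. Where all libraries of a group held at most 3 reads, a fold is a lower bound against 3 reads per library. On simulated counts for untreated Lkb1-/- against WT MEFs (15617 genes, 200 of them changed), 89% of genes changed by 1 log2 unit and 100% of those changed by 2 were called. The changed genes were drawn from those with a mean over 1 CPM in untreated WT MEFs, so these shares do not cover members under that level. Far fewer genes were changed than were called in the data.

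Replicate numbers were taken to pair libraries where each same-numbered pair in a comparison correlated over 0.1 in its deviations from the group means. Over all 84 pairs r ran from 0.0355 to 0.589. The IL-1β comparisons within a genotype, the stimulated comparisons between genotypes and untreated A2 against Lkb1-/- met this, as did the difference of the A2 and Lkb1-/- responses. The block was fitted as an alternative, beside unstranded counts, other normalizations, no filter, the newer quasi-likelihood method, DESeq2 1.42.0, fits restricted to the groups of a comparison, and fits without each library in turn. Members given by library are the TIMPs, the gelatinases, stromelysins, Mmp13, Mmp14, Adamts1, Adamts4 and Adamts5, and in each comparison the 2 called members with the largest fold in each direction among those with a group mean of at least 1 CPM. Any other member named was picked with its values in view. A result from the list of other inhibitors is not reported here. The members and gene lists were chosen with earlier results of these data known.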

Additional observations from a re-analysis of the deposited data

How the results depend on the processing

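None of the 124 calls of 22 named members changed its sign under the alternatives run, which were not tallied for values that were not called. Of these calls, 97 held under every alternative and 27 were lost under at least 1. Counting every gene without a filter gave 12 members called with IL-1β in WT, 15 in Lkb1-/- and 10 in A1 MEFs, against 2.59%, 3.88% and 2.47% of all genes, and 5, 5 and 1 in the differences of response of Lkb1-/- from WT, A1 from Lkb1-/- and A2 from Lkb1-/-, against 0.943%, 0.383% and 0.185%. With the replicate block the IL-1β counts were 12 in WT, 15 in Lkb1-/-, 13 in A1 and 17 in A2, against 9.3%, 14.8%, 9.61% and 17.9%. The numbers did not meet the pairing rule for the difference of the Lkb1-/- and WT responses, where the block gave 4 against 1.77% of all genes (Mmp19, FDR = 0.0039, Adamts1, FDR = 0.0079, and Adamts4, FDR = 0.045, lower, and Mmp1b, FDR = 0.0089, higher), for that of A1 and Lkb1-/-, where it gave Mmp9 (-0.98, FDR = 0.014) as 1 against 0.205%, or for untreated A2 against A1, where it gave 24 against 46.3%. It also gave 27 against 64.3% for untreated Lkb1-/- against WT and 21 against 48.1% for untreated A1 against Lkb1-/-, and no member called without the block was lost with it. Fitting only the groups compared gave 4 members with IL-1β in A2 against 1.54% of all genes, where Mmp13 (FDR = 0.14) and Mmp10 (FDR = 0.061) were among those lost, and 2 against 0.421% in the difference of the Lkb1-/- and WT responses, where DESeq2 gave 1 against 0.691%. The cause was not tested.

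Leaving out 1 library gave 22 to 24 members for untreated and 22 to 23 for stimulated Lkb1-/- against WT MEFs, against 50.7 to 53% and 51.8 to 53.8% of all genes. With IL-1β it gave 3 to 6 in WT, 8 to 9 in Lkb1-/-, 4 to 6 in A1 and 8 to 13 in A2, against 1.13 to 2.3%, 3.03 to 4.25%, 1.1 to 1.3% and 3.79 to 10.6%, and the 3 in WT came without untreated library 1 or stimulated library 3. The clone comparisons gave 11 to 13 and 16 to 19 for A1, 12 to 21 and 12 to 19 for A2, and 10 to 17 and 15 to 18 for A2 against A1, untreated and stimulated, against 23.7 to 34.2% of all genes. The newer quasi-likelihood method lost the IL-1β calls of Mmp13 (FDR = 0.062) and Mmp9 (FDR = 0.18) in WT and of Mmp12 in A1 (FDR = 0.058). Upper quartile scaling moved the share of higher calls over all genes with IL-1β in WT MEFs from 67.7% to 57.4%, and the median of all genes in untreated Lkb1-/- against WT MEFs to 0.12 log2 units. Members with a few reads per library are limited by depth, and for these a difference may go undetected.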
